A study of Mus musculus with 6 samples.

Results

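The mitochondrial ribosomal proteins are described here as the 75 genes whose symbol in the authors' deposited table begins with Mrpl or Mrps and a digit. They are 75 of 29209 rows, and all 75 are among the 18543 rows that carry an adjusted p and so were tested. Of the 75, 46 have a large subunit symbol and 29 a small subunit symbol. The measurements are RNA-seq of subcutaneous tumours in NCr nude mice, a strain without a thymus, grown from splenic cells of diseased mir-155LSLtTA mice. In that transgenic model miR-155 is overexpressed until doxycycline (DOX) is given, and every tumour of both groups carried the transgene. The DOX group of 3 samples came from mice fed chow with 2.3 mg per kg of doxycycline for 16 hours before harvest, and the No DOX group of 3 samples was untreated. Whether each sample was a separate mouse or donor spleen is not in the labels, so the spread behind the p-values may be technical rather than between animals.

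Mitochondrial ribosomes translate the few proteins that the mitochondrial genome encodes, all of them parts of the respiratory chain and the ATP synthase. Their RNA is mitochondrial, but every one of their proteins is encoded in the nucleus, made in the cytosol and imported. Many descend from bacterial ribosomal proteins and others exist only in mitochondria. Doxycycline, a tetracycline, binds the small subunit of bacterial ribosomes and is known to inhibit mitochondrial translation as well. DOX was not given to any tumour lacking the transgene, so an effect of the drug on mitochondria and an effect of miR-155 loss cannot be told apart in this comparison.

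The table holds 1 fold and 1 p-value per gene and no value per sample, so the level in each tumour and the sequencing depth are unknown. The fold is taken as the DOX value divided by the No DOX value. The table does not state this order, and with the opposite order every direction here is exchanged. A gene was called lower or higher at the authors' adjusted p under 0.05. The table gives no standard error. An approximate one, the implied SE, was taken as the size of the log2 fold over the normal quantile of its unadjusted p, and gives the approximate 95% intervals below. It assumes a normal test of the log2 fold, which was not checked. For folds near 0 it is unstable, so nothing is read from how narrow such an interval is.

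The genes of the mitochondrial ribosome were listed below 1 almost throughout, and the middle of the set lay at about 2-fold lower with DOX. Of 75 members, 13 fell and 0 rose, or 17.3% and 0%, against a background of 5.61% lower and 5.72% higher among all tested genes in the authors' deposited table. A fold below 1 was listed for 70 of the 75, against 40.6% of all tested genes. The median log2 fold of the members was -1.05, with an interquartile range from -1.34 to -0.72, while all tested genes with finite ratios had a median of 0.17. At an unadjusted p under 0.05 there were 32 lower members and 0 higher ones, or 42.7% lower against 10.4% of all tested genes lower and 11.9% higher. At an adjusted p under 0.1 there were 17 lower and 0 higher, with 7.35% and 7.74% in the background. The members and their lists were chosen with earlier results of these data known, so these counts are a description and the set as a whole was not tested.

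**Figure D1:**
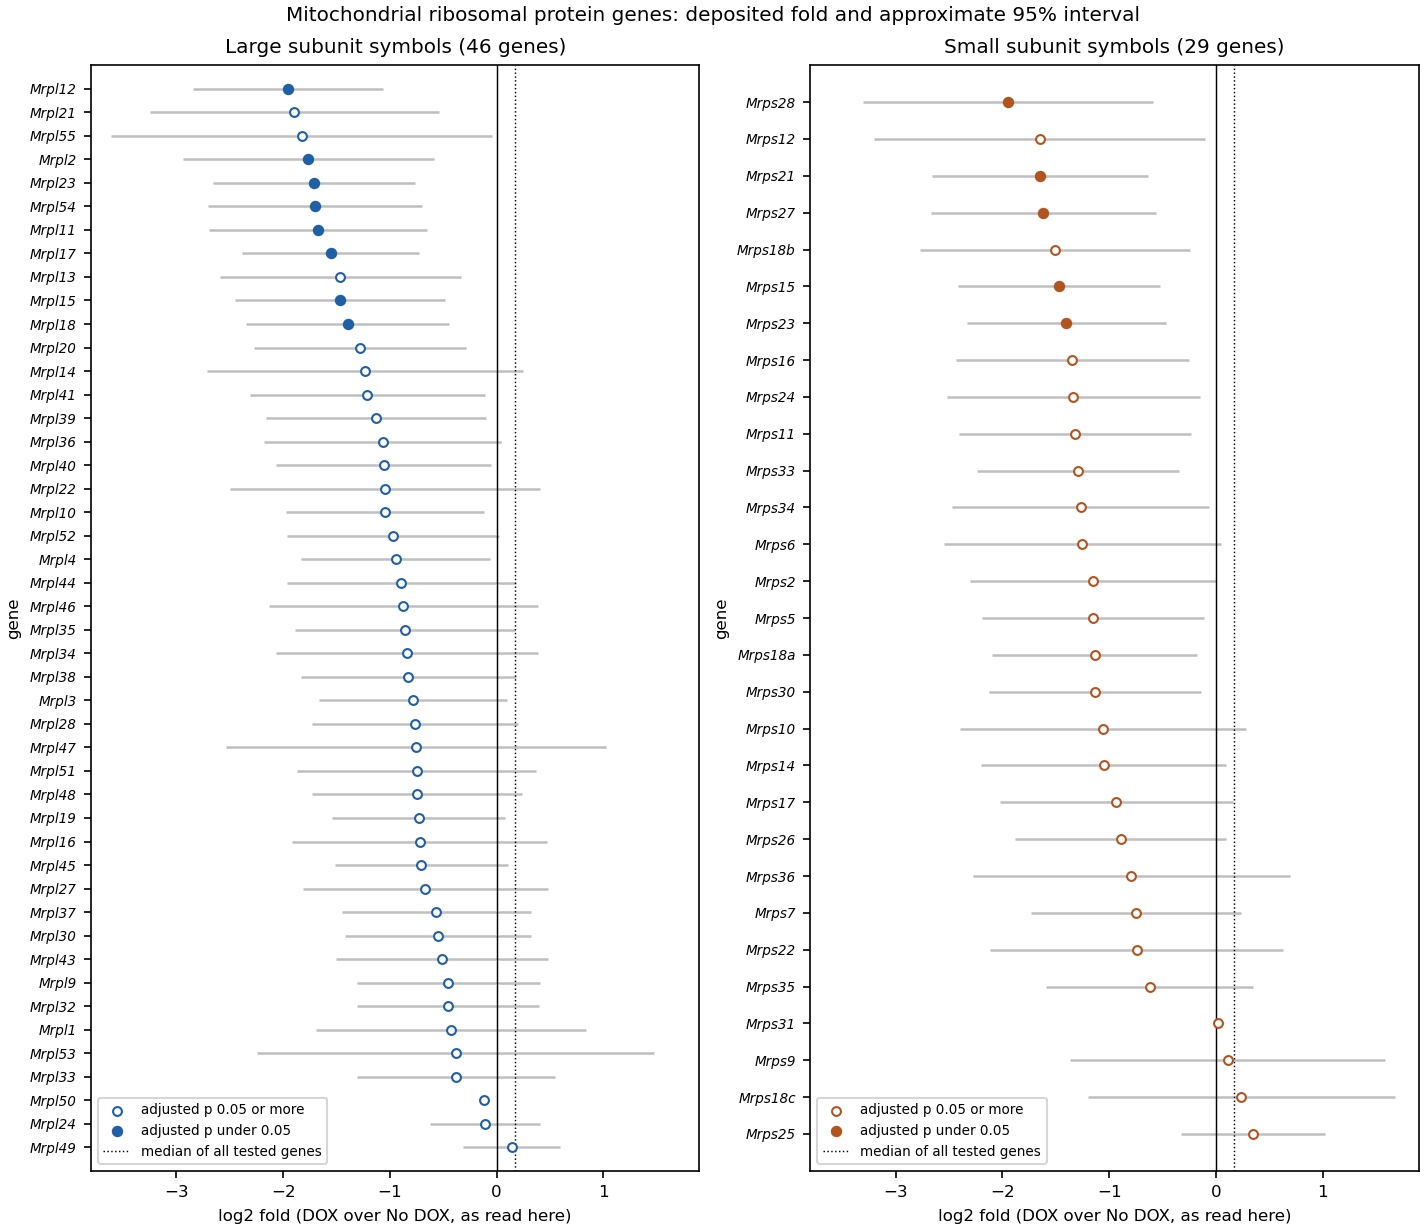
Log2 fold of each mitochondrial ribosomal protein gene (x axis) by gene (y axis), large subunit symbols left and small subunit symbols right. Filled points have an adjusted p under 0.05, grey bars are approximate 95% intervals from the implied SE (absent for Mrpl50 and Mrps31, whose p is too near 1), and the dotted line is the median of all tested genes at 0.17. The 13 filled points lie between -1.96 and -1.40, and 5 open points lie right of 0.

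Mrpl12 had the smallest adjusted p of the set. It encodes the counterpart of bacterial L7/L12, the flexible stalk protein that recruits translation factors, and the protein also binds the mitochondrial RNA polymerase. The authors' deposited table lists it at a log2 fold of -1.96, a ratio of 0.258 (adjusted p = 0.000666), from which the implied SE is 0.455. Mrpl11, at the base of that stalk, also fell (-1.67, adjusted p = 0.0179 in the authors' deposited table). Mrpl10, which anchors the L7/L12 copies, had a log2 fold of -1.05 (adjusted p = 0.147), and Mrpl1, of the stalk on the opposite side, one of -0.43 (0.873) in the authors' deposited table. Of these 4 stalk genes 2 fell and all 4 were listed below 1. Among all members 17.3% fell and 70 of 75 were listed below 1, and among all tested genes 5.61% and 40.6%. The 4 were grouped after the values were seen, so nothing is read from these counts.

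Around the exit tunnel, through which the nascent chain leaves, Mrpl17 (-1.56, adjusted p = 0.00495) and Mrpl23 (-1.71, 0.00723) fell (log2 folds as listed in the authors' deposited table). With Mrpl12 they are the 3 members lower at an adjusted p under 0.01, where 0 were higher, with 3.07% and 3.11% in the background. Neighbouring genes at the tunnel missed the threshold: Mrpl22 (-1.05), Mrpl45, the protein that ties the ribosome to the inner membrane (-0.70), Mrpl47 (-0.76) and Mrpl24 (-0.11) in the authors' deposited table. The approximate interval of Mrpl24 runs from -0.63 to 0.40, and those of Mrpl23 and Mrpl17 have upper ends at -0.76 and -0.73. The fold of Mrpl24 is near 0, where the implied SE is unstable, so no difference is read from these intervals.

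In the region of the peptidyl transferase centre, where peptide bonds form, Mrpl2 fell (-1.76, adjusted p = 0.0332 in the authors' deposited table). The other 4 genes placed there, Mrpl3, Mrpl4, Mrpl16 and Mrpl27, had log2 folds from -0.95 to -0.67 in the authors' deposited table and did not pass. Of 5 genes of the central protuberance, the crest of the large subunit, Mrpl18 fell (-1.40, 0.0394 in the authors' deposited table), and Mrpl38, Mrpl40, Mrpl46 and Mrpl48 ranged from -1.06 to -0.75. Mrpl15 (-1.47, adjusted p = 0.0358) and Mrpl54 (-1.70, 0.0130), the latter without a bacterial counterpart, complete the 8 large subunit genes that fell in the authors' deposited table. These groupings by place in the ribosome were made after the values were seen. With 17.3% of the members and 5.61% of all tested genes lower, nothing is read from the counts in groups this small.

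The small subunit holds the decoding site and is the part that tetracyclines bind in bacteria. Of the 29 genes with a small subunit symbol 5 fell: Mrps21, Mrps15, Mrps27, Mrps23 and Mrps28. The authors' deposited table gives them log2 folds of -1.65 (adjusted p = 0.0179), -1.47 (0.0271), -1.62 (0.0294), -1.40 (0.0334) and -1.95 (0.0454). Mrps27 is a pentatricopeptide repeat protein, of a family that binds RNA, and Mrps28 is the last member inside the threshold. Of the 5 genes of the subunit's head, Mrps7, Mrps9, Mrps10, Mrps14 and Mrps24, 0 passed, and their log2 folds ran from -1.34 for Mrps24 to 0.11 for Mrps9 in the authors' deposited table. Of 5 genes placed on its platform 1 fell, Mrps21. The median log2 fold was -1.05 for the head and -1.32 for the platform. These groups were made after the values were seen. With 17.3% of the members and 5.61% of all tested genes lower, 5 genes are too few to read anything from such counts. Mrps12, the counterpart of the bacterial S12 at the decoding site, had a log2 fold of -1.65 (adjusted p = 0.184) in the authors' deposited table, as large as that of Mrps21 but with an implied SE of 0.793 against 0.516.

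Large and small subunit symbols held near-equal shares of lower calls, 8 of 46 (17.4%) and 5 of 29 (17.2%). Among all tested genes 5.61% were lower, and among other protein-coding genes of like transcript length 9.33%. The median log2 fold was -0.87 for large and -1.15 for small subunit symbols, with 45 of 46 and 25 of 29 listed below 1. By origin, 10 of 47 genes with a bacterial homologue fell (21.3%, median -1.07), and 3 of 27 genes specific to mitochondria (11.1%, median -0.83). The latter share is near that of genes of like transcript length. That list takes in Mrpl42 under its table name D10Ertd322e (-0.81 in the authors' deposited table). By structure Mrps30 (-1.13) and Mrps18a (-1.14) belong to the large subunit in spite of their symbols, and Mrps36 (-0.79) is now assigned to the alpha-ketoglutarate dehydrogenase complex. None of these passed in the authors' deposited table. The differences by subunit and by origin were not tested.

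Folds on the 2 sides of the threshold overlapped. Besides the 13 that fell, 57 members were listed below 1 and did not pass, with log2 folds from -1.90 to -0.11 in the authors' deposited table. Just inside it were Mrpl15, Mrpl18 and Mrps28. Just outside it were Mrpl21 (-1.90, adjusted p = 0.0526), Mrps33 (-1.29, 0.0607) and Mrpl13 (-1.47, 0.0795) in the authors' deposited table. Of the 38 members with a fold of 0.5 or less, against 15.5% of all tested genes, 25 did not pass. One of these is Mrpl55: its log2 fold was -1.83 in the authors' deposited table, with an implied SE of 0.912 and an adjusted p of 0.209. The median implied SE of the set was 0.526, and the SD of its log2 folds was 0.53. The genes share all libraries, so these values do not show whether the members differ. The approximate intervals of 69 of the 73 members that have one held the set's median. The exceptions were Mrpl12 below it and Mrpl24, Mrps25 and Mrpl49 above it. Those above it have the smallest implied SEs of the set and folds nearer 0, where the implied SE is unstable.

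The members at the upper end are few. Mrps25, specific to mitochondria, had the highest log2 fold, 0.35 (adjusted p = 0.689 in the authors' deposited table), with an approximate interval from -0.33 to 1.02. Mrps18c followed at 0.24, Mrpl49 at 0.14, Mrps9 at 0.11 and Mrps31 at 0.01 in the authors' deposited table, and none passed. Of these, Mrpl49 has the smallest implied SE of the whole set, 0.231, and an approximate interval of -0.31 to 0.59. Its fold is near 0, where the implied SE is unstable. So nothing is read from the place of that interval above the set's median of -1.05. The 3 paralogues of bacterial S18 were listed apart, at -1.51 for Mrps18b, -1.14 for Mrps18a and 0.24 for Mrps18c in the authors' deposited table. Their approximate intervals overlap, that of Mrps18c reaching down to -1.20.

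For 6 members the table holds another row whose symbol is written in capitals and whose RefSeq accession belongs to the same gene. Mrpl13, a core protein of the large subunit, is the one where both rows have small p-values: Mrpl13 had a ratio of 0.362 (unadjusted p = 0.0109) and MRPL13 one of 2.46 (unadjusted p = 0.0105) in the authors' deposited table. The directions are opposite, and neither row passed after adjustment (0.0795 and 0.0775). Mrpl4 (-0.95) and MRPL4 (0.66) also differ in sign in the authors' deposited table, while Mrps5 and MRPS5 (-1.15 and -2.08) and Mrps17 and MRPS17 (-0.93 and -0.92) do not. The rows MRPL33 and MRPS11 are listed with an infinite ratio, so no finite fold is given. Such a ratio is above 1, the opposite direction to Mrpl33 (-0.38) and Mrps11 (-1.32) in the authors' deposited table. The sources used here do not say how reads were divided between such rows, so the folds of these 6 members are uncertain. None of the 6 is among the 13 that fell.

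Cytosolic ribosomal proteins and the nuclear genes of the respiratory chain, the most like sets, had medians close to that of the mitochondrial ribosome but many more calls. The median log2 fold was -1.02 for cytosolic ribosomal proteins and -1.20 for the respiratory chain, against -1.05. Of 82 cytosolic ribosomal protein rows 63 fell (76.8%), and of 79 respiratory chain rows 37 (46.8%), against 17.3% of the mitochondrial ribosome, with 0 higher in each. Among all tested genes 5.61% were lower and 5.72% higher. Rows were taken by symbol, so a few that are not parts of these complexes are counted, such as Rps19bp1 and Cox4nb. Cox4nb (-1.26 in the authors' deposited table) is among the 37 that fell. Rps2 (-2.01, adjusted p = 2.77e-07) and the ATP synthase gene Atp5b (-1.97, 2.78e-06) had folds like that of Mrpl12 in the authors' deposited table. The median implied SE was 0.311 for cytosolic ribosomal proteins, 0.440 for the respiratory chain and 0.526 for the mitochondrial ribosome. These differences between sets were not tested.

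**Figure D2:**
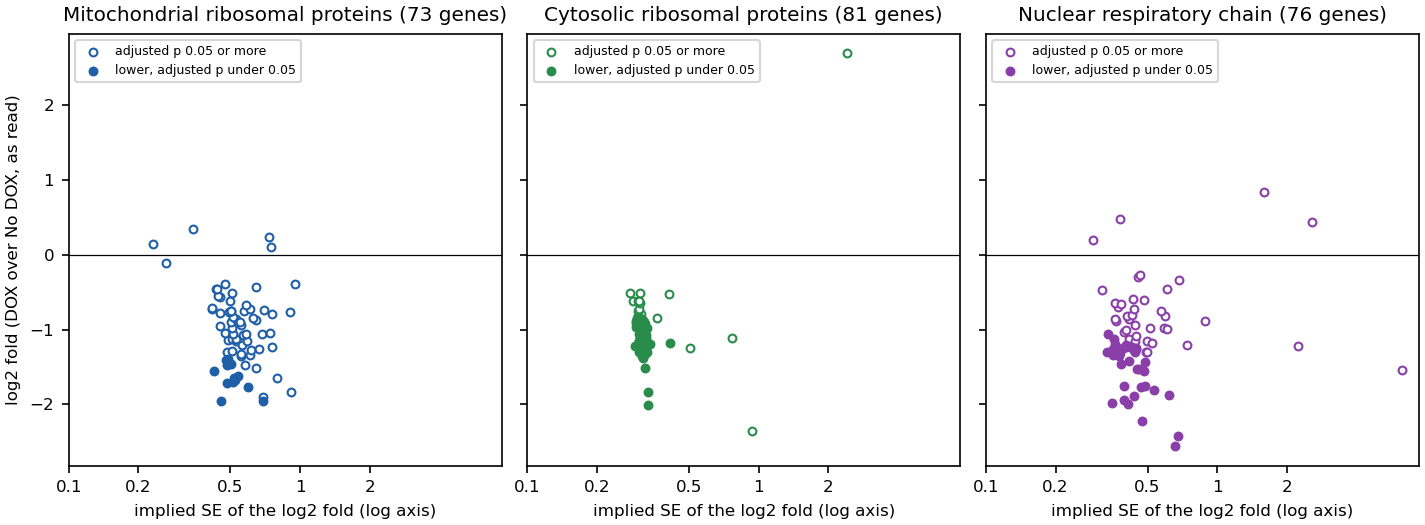
Log2 fold (y axis) against the implied SE of the log2 fold (x axis, log scale) for genes with an implied SE, in 3 sets. Filled points fell at an adjusted p under 0.05. The sets lie at like heights, with medians of -1.05, -1.02 and -1.20, while the mitochondrial ribosome lies further right, at a median implied SE of 0.526 against 0.311 and 0.440.

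**Figure D3:**
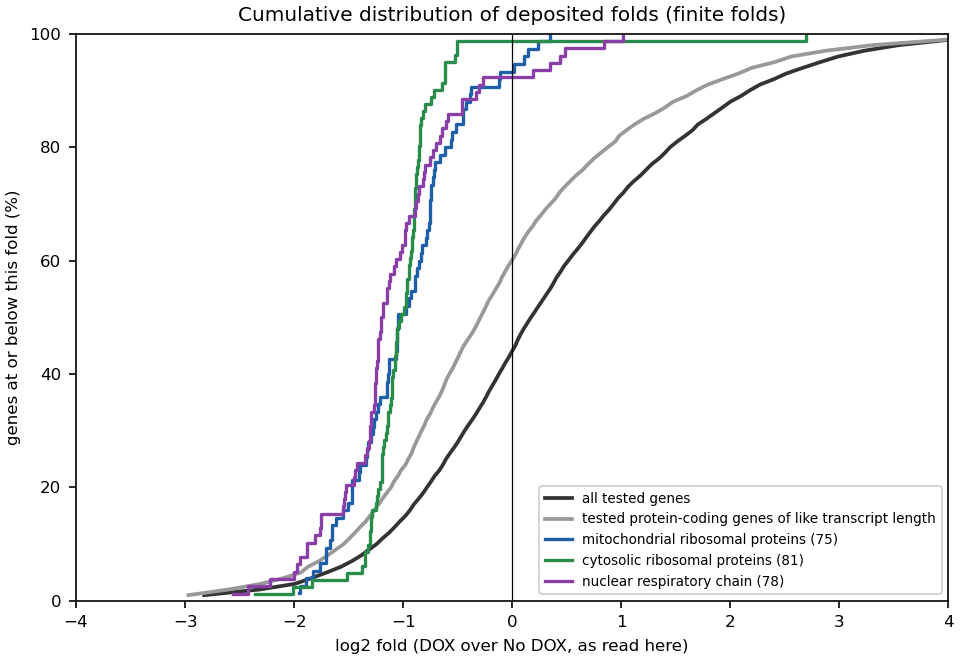
Share of genes at or below each log2 fold (y axis, percent) against the log2 fold (x axis), for genes with a finite fold. At their medians the curves of both ribosomes and of the respiratory chain lie left of the curve of all tested genes, whose median is 0.17, and of tested protein-coding genes of like transcript length, whose median is -0.29. In the lower tail the curves cross: all tested genes reach 3% at -1.99, while the lowest mitochondrial ribosomal protein gene lies at -1.96.

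The 7 further mitoribosomal proteins whose symbols lie outside the symbol pattern had like folds, and 0 of 7 passed. All 7 were listed below 1, with a median log2 fold of -1.09. Aurkaip1 (-1.25, adjusted p = 0.0700) and Dap3, a GTP-binding protein of the small subunit also studied in cell death (-1.15, 0.0742), came nearest in the authors' deposited table. The release factor-like Ict1 (-1.02), Gadd45gip1 (-1.09), Chchd1 (-1.10), Mrp63 (-0.62) and the pentatricopeptide protein Ptcd3 (-0.36) complete them in the authors' deposited table.

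The factors that build and serve the mitochondrial ribosome had medians nearer 0. Among all tested genes 5.61% were called lower and 5.72% higher, which gives about 1 call in each direction in lists of this size, so nothing is read from the counts. Of 19 tested assembly and rRNA modification genes 1 fell and 1 rose (5.26% each), with a median of -0.32. C1qbp, a matrix protein needed for mitochondrial translation, fell (-2.82, adjusted p = 0.000278), and Mterf3, listed as Mterfd1, a regulator of mitochondrial transcription and ribosome assembly, rose (1.71, 0.0112) in the authors' deposited table. Of 16 translation factors 0 passed, and the median was -0.40. The elongation factor gene Tufm (-1.33, adjusted p = 0.317) and Lrpprc, which stabilises mitochondrial mRNAs (-1.10, 0.0592), had the lowest folds in the authors' deposited table. Of 17 mitochondrial aminoacyl-tRNA synthetases, which charge tRNAs with amino acids, 0 passed, and their median was -0.29. Sars2 came nearest (-1.40, adjusted p = 0.0929 in the authors' deposited table).

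**Figure D4:**
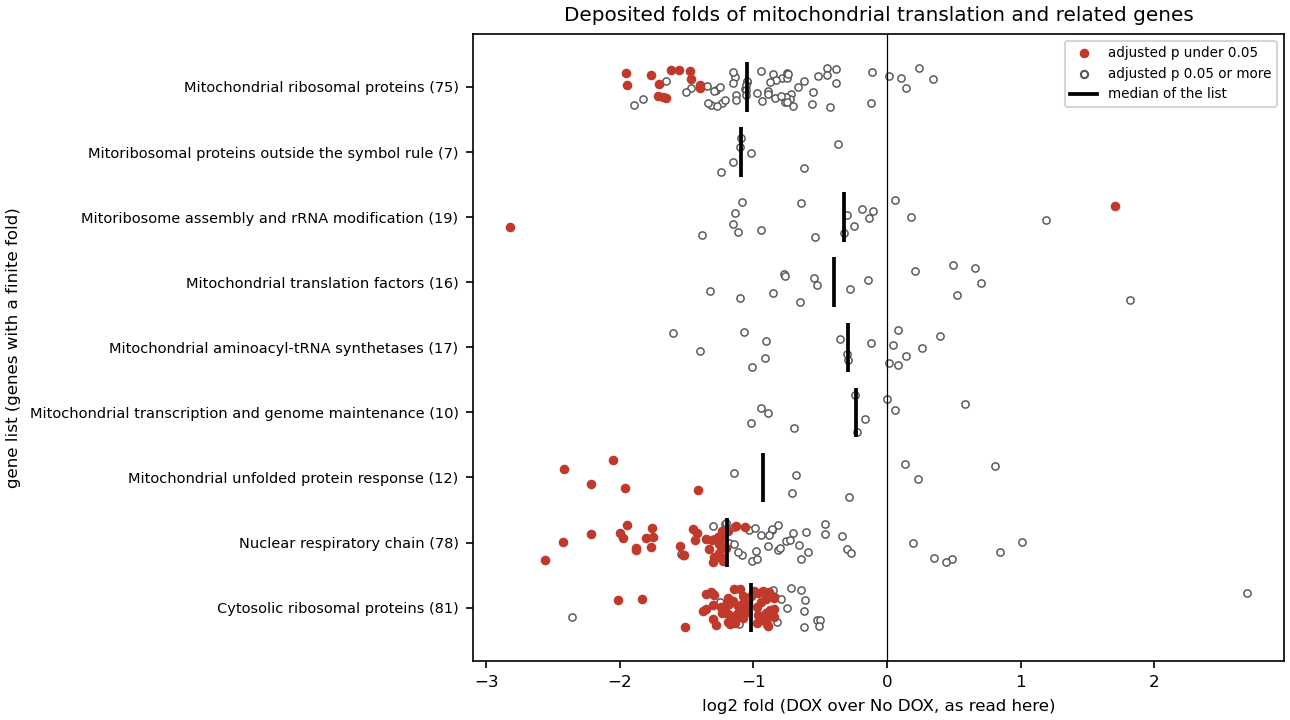
Log2 fold (x axis) of each gene with a finite fold, by gene list (y axis), with list medians as black bars and genes at an adjusted p under 0.05 in red. The bars of both ribosomes and the respiratory chain lie at or below -1.02, and those of assembly, translation, tRNA charging and transcription genes lie between -0.40 and -0.23.

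The genes that copy and transcribe the mitochondrial genome had a median of -0.23 and 0 calls among 10, too few genes to set against 5.61% lower and 5.72% higher among all tested genes. Polrmt, the RNA polymerase that Mrpl12 binds, stood at -0.69 (adjusted p = 0.388 in the authors' deposited table). Among the 13 proteins that the mitochondrial genome encodes 1 has a row, mt-Nd4, with a log2 fold of 0.44 (adjusted p = 0.489 in the authors' deposited table). The other 12 are not analysed here, so the products of mitochondrial translation could not be followed. Of 12 genes of the mitochondrial unfolded protein response, the chaperones and proteases induced when mitochondrial proteins misfold, 5 fell (41.7%) and 0 rose, against 5.61% and 5.72% of all tested genes. These were the chaperone genes Hspa9 (-2.42), Hspd1 (-2.22), Hspe1 (-2.05) and Trap1 (-1.41) and the protease gene Clpp (-1.96) in the authors' deposited table. Atf4 (-0.28), Atf5 (-1.15) and Ddit3 (0.23), its transcription factors, missed the threshold by the authors' deposited table. So did Lonp1 (-0.68) and Dnaja3 (-0.71), listed below 1, and Clpx (0.13) and Yme1l1 (0.81), listed above it. The list had a median log2 fold of -0.93, with 9 of 12 genes below 1.

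Mitochondrial ribosomal protein genes have short transcripts, and short transcripts leaned lower across the whole table. The longest annotated protein-coding transcript of the members had a median of 1316 bases, against 3115 bases over 14081 tested genes. Among 4630 other protein-coding rows in the members' central length range, from 920.5 to 2501.5 bases, 9.33% fell and 1.86% rose, with a median log2 fold of -0.29. In the decile of shortest transcripts, up to 1318 bases, 38 members had a median of -1.24 and 8 fell, beside 14.8% lower and a median of -0.64 among the other genes there. In the next decile 12 members had a median of -0.53 and 1 fell, beside 8.24% lower and a median of -0.34 among the other genes, so there the members' share of calls was close to that of genes of like length. The remaining 8 deciles hold 1 to 5 members each. Within the 75 members, the log2 fold had a Spearman's rho of 0.27 against length and of -0.43 against GC content, a description across genes of 1 comparison that share all libraries. Over 12462 tested protein-coding genes with a finite fold, rho was 0.285 against length and -0.241 against GC content, so both signs were shared with the whole table. The part of length and GC in the members' folds was not tested, and the set's median relative to the like-length genes was -0.75.

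**Figure D5:**
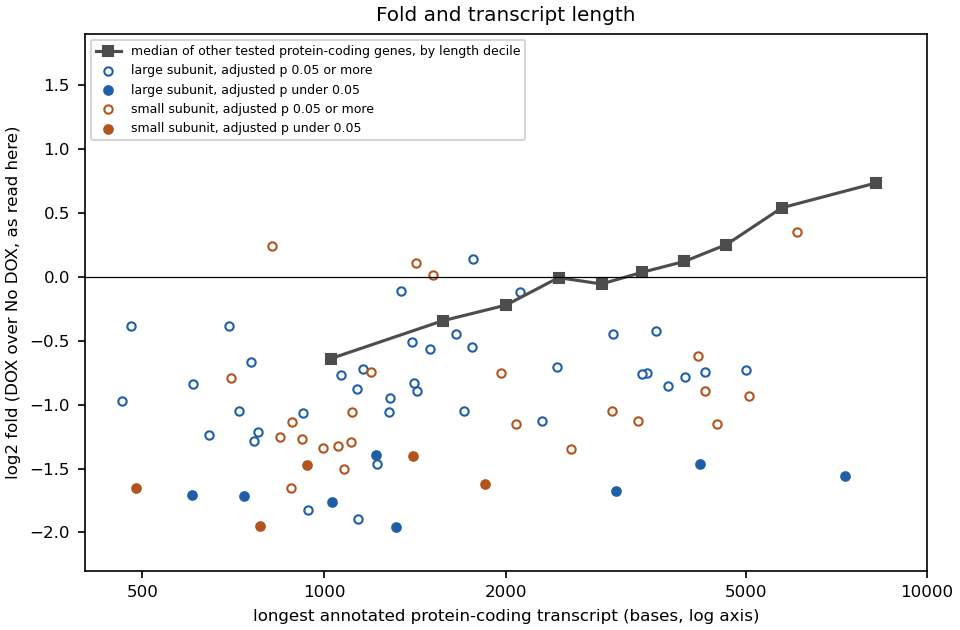
Log2 fold (y axis) against the length of the longest annotated protein-coding transcript (x axis, bases, log scale) for the 75 members, with squares at the median fold and median length of other tested protein-coding genes in each length decile. The squares climb from -0.64 in the shortest to 0.73 in the longest decile, and most members lie below the squares at their own length.

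Some markers of other cell types of the tumour also passed the threshold, with 5.72% higher and 5.61% lower among all tested genes as the background. Of 16 macrophage markers all 16 were listed above 1, with log2 folds from 0.41 to 4.75 and a median of 2.04, and 4 rose (25%): Csf1r, Mertk, Ccr2 and Apoe. Of 12 fibroblast markers 11 were listed above 1, the median was 1.89 and 2 rose (16.7%). Of 11 tested B lineage markers 3 rose (27.3%) and 1 fell (9.09%), with a median of 0.41, and of 7 tested T cell markers 0 passed. Their part in the folds of the ribosomal genes was not tested, and no level per sample is at hand to sum. In bulk tumour RNA, fewer cells of a type and less RNA per cell cannot be told apart.

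The members' promoters, of genes that passed and of genes that did not, were read for 4 motifs of factors known for ribosomal and mitochondrial genes. RefSeq promoters (build GRCm38.p6, 250 bases before to 50 bases after the start) were at hand for 66 of the 75 members, 72 promoters in all. The ETS core CCGGAAG, read on both strands, was found in 24 of 72 (33.3%), against 15.2% of the promoters of tested protein-coding genes and 8.86% of all promoters. The YY1 motif AAGATGGC was found in 11 (15.3%, against 3.87% and 2.75%), the palindromic NRF1 consensus in 3 (4.17%, against 1.77% and 0.971%) and the MYC E-box CACGTG in 7 promoters of 5 genes (9.72%, against 9.28% and 7.15%). Overlapping promoters of Mrpl2 hold the same E-box, so the 7 promoters count that site more than once. By gene the E-box was found in 5 of 66 members, and nothing is read from its share of promoters. Of the 10 fallen members with a promoter 5 held the ETS core, and of the other 56 members 19 did. The ETS and YY1 motifs can share the letters AAG, and sites can lie side by side, as in Mrps18c. The windows below show the ETS core (capitals, CTTCCGG where it lies on the opposite strand) in 3 members that fell, the E-box of Mrpl2, which fell, and both motifs of Mrps18c, which did not change detectably. A match is a description of the letters, not a binding site.
Mrpl17, chr7:105811301-105811337, minus strand: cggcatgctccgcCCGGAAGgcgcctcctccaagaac
Mrpl18, chr17:12916308-12916341, minus strand: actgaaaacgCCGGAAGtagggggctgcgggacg
Mrps27, chr13:99344721-99344761, plus strand: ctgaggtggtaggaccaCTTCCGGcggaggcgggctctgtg
Mrpl2, chr17:46646073-46646112, plus strand: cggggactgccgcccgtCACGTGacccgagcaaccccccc
Mrps18c (E-box), chr5:100798579-100798618, plus strand: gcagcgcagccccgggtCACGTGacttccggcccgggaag
Mrps18c (ETS), chr5:100798586-100798626, plus strand: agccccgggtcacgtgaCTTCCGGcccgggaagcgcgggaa

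These coordinates belong to the RefSeq table and not to the authors' build, mm9. The ETS core ends 231 and 234 bases before the start in Mrpl17 and Mrpl18 and 42 bases before it in Mrps27. Mrpl17, Mrpl18 and Mrps27 were listed at -1.56, -1.40 and -1.62 (log2), and Mrps18c, with the same letters, at 0.24 in the authors' deposited table. Mrpl12, with the smallest adjusted p, holds none of the 4 motifs in its window.

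Since the comparison withdraws miR-155, the 3' UTRs of the members were also read for its seed matches, AGCATTA and GCATTAA on the transcript strand. Of 75 members 7 hold a match (9.33%), against 13.6% of 14081 tested protein-coding genes and 7.59% of the 7867 whose 3' UTR lies in the members' central length range. The median 3' UTR is 390 bases in the members and 816 in those 7867 genes, so length is not matched within the range. The 7 are Mrpl17, Mrpl18, Mrps26, Mrpl3, Mrpl35, Mrpl32 and Mrps25. The mature microRNA (RefSeq) is given first, with its seed, bases 2 to 8, in capitals. Below it are the sites, in capitals, of the 2 members that hold a match and fell, and of Mrps25, the member with the highest fold.
mmu-miR-155-5p: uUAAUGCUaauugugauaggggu
Mrpl17: tatgagaacccAGCATTAaaggaattttac
Mrpl18: ggaaagcatctGCATTAAaaggaagaaagg
Mrps25, first site: gtgtgtgcagcAGCATTAgcgtccatgaat
Mrps25, second site: gcatattgctgAGCATTAgaaatgtctgat

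Mrps25 holds 2 matches, at positions 2556 and 2753 of an annotated 3' UTR of 5500 bases, and its log2 fold was 0.35 in the authors' deposited table. The site of Mrpl17 begins at position 6608 of 6654, and that of Mrpl18 at position 75 of 332. The other 4 members with a match, Mrps26, Mrpl3, Mrpl35 and Mrpl32, were listed at -0.89, -0.78, -0.86 and -0.45 (log2) in the authors' deposited table, and none passed. Of the 7 members with a match, 6 were thus listed below 1, as were 70 of all 75.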

How the data were processed

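RNA-seq of 6 tumour samples, 3 with DOX and 3 without, was summarised by the authors in 1 table of their comparison. The submitters' processing notes name RSEM and DESeq as tools and mm9 as the mouse build, without versions. Per the file headers, the deposited values are a fold change (a linear ratio) and unadjusted and adjusted p-values. A Benjamini-Hochberg adjustment of the 18543 deposited p-values gave the deposited adjusted ones, differing by at most 2.09e-06. Of these, 15784 have a finite ratio. No value per sample, group mean or depth was at hand, so no test was run here and precision rests on the authors' p-values. Log2 folds were taken from the ratio.

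Members and lists were chosen with earlier results of these data known. The rule for named genes took the called members, the 3 largest falls and rises, the 3 members on each side of the threshold and up to 4 called genes per related list; other genes, among them Trap1, Polrmt, Atf4 and uncalled neighbours in the ribosome, were chosen after their values were seen. Current symbols came from RefSeq (GRCm38.p6), by symbol, accession or unique synonym. Transcript lengths, GC and 3' UTRs came from GENCODE M21 and cover all 75 members. The scripts (Python 3.11.15, pandas 2.3.3, scipy 1.17.1) were tested on simulated data. Alternatives changed the threshold, the adjustment, the members and the centring.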

Additional observations from a re-analysis of the deposited data

How the results depend on the processing

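The 13 lower and 0 higher calls among the mitochondrial ribosomal protein genes became 17 and 0 at an adjusted p under 0.1, 3 and 0 at an adjusted p under 0.01, and 0 and 0 under Bonferroni, the last 2 by construction stricter. Adjustment over finite folds gave 14 lower, and adjustment over protein-coding matches, 1 row per current symbol, a change of at least 2-fold, the 89 rows matched by current symbol (the 75, the 6 in capitals, D10Ertd322e and the 7 proteins outside the symbol pattern) and the 81 rows that add only the symbols in capitals (chosen after seeing the data) each gave 13 lower. The median log2 fold of -1.05 stayed between -1.22 (centred on all tested genes) and -0.75 (centred on genes of like transcript length). At an adjusted p under 0.01, lower calls became 3 of the large and 0 of the small subunit, 3 with a bacterial homologue and 0 specific to mitochondria. In that setting 31 cytosolic ribosomal protein, 16 respiratory chain and 3 mitochondrial unfolded protein response genes remained lower. At an adjusted p under 0.1, 2 mitoribosomal proteins outside the symbol pattern, 1 translation factor and 1 mitochondrial aminoacyl-tRNA synthetase were lower, from 0 each. No paired analysis was possible because the table holds no value per sample, and for the same reason no sample could be left out in turn. Depth is unknown, so a member that missed the threshold is not shown to be unchanged.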
